A study of Mus musculus with 15 samples.

Results

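Stambpl1, Dach1, Dynlt1b, Fgf12 and Flvcr2 are 5 of the 26263 named genes counted in cultured mouse neural stem and progenitor cells. They were taken by symbol and had been chosen by their counts in the transgenic comparison, because their RNA was several times higher in cells carrying a Kat6b transgene than in wild-type cells of the same mixed background. Those levels are therefore given below as a description, without a test. All 5 passed the low-count filter, which kept 15261 genes.

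Neurospheres were grown with EGF and FGF from cells of the embryonic day 12.5 dorsal telencephalon. The groups were KO_B6 (Kat6b-/-, C57BL/6, n = 4), WT_B6 (wild type, C57BL/6, n = 3), Tg_FvB (Tg(Kat6b), mixed FVB and BALB/c, n = 6) and WT_FvB (wild type, same mixed background, n = 2). The sources used here do not say what drives the transgene or which part of Kat6b the knockout allele lacks. The mixed background was used because the transgenic mice did not survive as an inbred strain, per the series' design text, so embryos of these groups need not be genetically alike. The labels give litter and embryo numbers but do not say whether libraries came from separate cultures, so p-values measure only the spread between these samples, which may be technical.

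KAT6B is a histone acetyltransferase of the MYST family. It works in a complex with a BRPF scaffold and modifies histone H3 in chromatin, and in humans its mutations cause developmental syndromes that affect the brain. The 5 genes do not belong to 1 pathway. Dach1 encodes a transcription cofactor that acts with EYA proteins in the retinal determination network. Dynlt1b encodes a Tctex-type light chain of cytoplasmic dynein, the motor that carries cargo towards microtubule minus ends. Stambpl1 encodes an AMSH-like deubiquitinase that cuts ubiquitin chains. Fgf12 encodes a fibroblast growth factor homologous factor, a protein that stays inside the cell and binds voltage-gated sodium channels. Flvcr2 encodes a membrane transporter of choline that is best known from brain blood vessels.

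Libraries held 12336303 to 62819028 counts. Kat6b itself had 60.9 to 66 CPM (counts scaled to the size of the library, with TMM factors) in KO_B6 and 83.5 to 85.1 CPM in WT_B6, and a total over all exons does not check an allele that leaves some of them. It had 268, 265, 266, 229, 140 and 289 CPM in Tg_FvB replicates 1 to 6, against 54.4 and 51.8 CPM in WT_FvB. Sample titles call the Tg_FvB libraries knockouts, and the headers of the count columns name replicates 5 and 6 as wild types 3 and 4 of this background. The genotype field, which says Kat6b Tg, was followed, and Kat6b was above every wild type in all 6. Of 12 tested genes of KAT6-type acetyltransferases and their complexes, Kat6b was the 1 called in Tg_FvB against WT_FvB, where edgeR called 0.681% of all tested genes higher and 1.16% lower. In KO_B6 against WT_B6, 7 of the 12 rose and 1 fell, where 24.8% of all tested genes were called higher and 20.9% lower. On the first principal component of all kept genes (48.9% of the variance), KO_B6 lay at -23 to -16.4, WT_B6 at -42.1 to -40.67 and WT_FvB at 39.26 to 39.69. Tg_FvB replicates 1 to 3 lay at 24.34 to 27.69, replicate 4 at 40.52 beside the wild types, and replicates 5 and 6 at -0.11 and 3.04, between the backgrounds. A litter and embryo number is shared by WT_B6 replicate 1 and WT_FvB replicate 2, although their backgrounds differ. Of 10 neural stem and progenitor markers, 10 were detected in each group, with summed levels of 6070 to 7260 CPM in KO_B6, 7600 to 7640 CPM in WT_B6, 5050 to 7920 CPM in Tg_FvB and 5180 to 5270 CPM in WT_FvB. Single markers differed more. In KO_B6 against WT_B6, Hes5 (log2 fold change -1.66), Msi1 (-0.98), Sox1 (-0.6), Sox2 (-0.555), Notch1 (-0.49), Pax6 (-0.434) and Vim (-0.313) were called lower. Nes (0.434) was called higher, and Fabp7 and Prom1 were not called. In Tg_FvB against WT_FvB, Sox1 alone was called, higher (0.31, edgeR adjusted p = 0.0488).

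Sequences of 2 sets are printed, and the first bears on how the Dynlt1b counts can be read. The first is the start of the Dynlt1 coding sequence, because Dynlt1b has near-identical copies on chromosome 17. Over the whole coding sequence of 342 bases, Dynlt1b differs from each of Dynlt1a, Dynlt1c and Dynlt1f by 1 base (99.7% identity). The substitution is A21C, with the Dynlt1b base first and positions counted from the A of the start codon. The first 90 coding bases below are from GENCODE vM21 (GRCm38, the assembly of mm10), and the capital marks that base where it differs from Dynlt1b. The coding sequences span chr17:6430212-6435967 (Dynlt1b, + strand), chr17:6310873-6317400 (Dynlt1a, - strand), chr17:6601810-6607571 (Dynlt1c, + strand) and chr17:6649267-6655800 (Dynlt1f, - strand).
Dynlt1b: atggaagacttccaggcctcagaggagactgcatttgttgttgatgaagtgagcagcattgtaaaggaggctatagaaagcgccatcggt
Dynlt1a: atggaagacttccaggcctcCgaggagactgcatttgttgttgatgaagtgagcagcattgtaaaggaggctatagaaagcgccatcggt
Dynlt1c: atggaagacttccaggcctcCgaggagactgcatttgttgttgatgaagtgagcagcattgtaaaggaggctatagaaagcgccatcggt
Dynlt1f: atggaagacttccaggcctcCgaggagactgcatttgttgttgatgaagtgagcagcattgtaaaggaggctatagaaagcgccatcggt

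The second set shows promoters, as a description. The KAT6 proteins are known to bind unmethylated CpG-rich DNA, but KAT6B binding and DNA methylation at these starts were not tested. RefSeq windows of 300 bases on GRCm38.p6 (250 before a transcript start and 50 after) were given for 4 of the 5 genes. Each line below holds the 120 bases before a start, on the strand of the gene, from the window with most CG among those whose printed bases overlap no exon. Capitals mark the dinucleotide CG, which reads the same on both strands.
Flvcr2, chr12:85746419-85746538, + strand: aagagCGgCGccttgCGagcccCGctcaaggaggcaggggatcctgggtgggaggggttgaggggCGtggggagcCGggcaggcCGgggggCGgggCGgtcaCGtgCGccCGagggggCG
Fgf12, chr16:28564952-28565071, - strand: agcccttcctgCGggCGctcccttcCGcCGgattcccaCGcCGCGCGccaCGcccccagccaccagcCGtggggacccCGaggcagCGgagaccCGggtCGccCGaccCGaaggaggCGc
Stambpl1, chr19:34192109-34192228, + strand: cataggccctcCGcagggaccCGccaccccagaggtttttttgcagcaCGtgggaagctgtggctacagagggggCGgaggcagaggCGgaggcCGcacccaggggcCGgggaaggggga
Dach1, chr14:98169766-98169885, - strand: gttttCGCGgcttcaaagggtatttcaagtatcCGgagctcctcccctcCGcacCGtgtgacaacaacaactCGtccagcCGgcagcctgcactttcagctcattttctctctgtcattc
The 300-base windows held 34 CG for this start of Fgf12, 24 for Flvcr2, 14 for Stambpl1 and 13 for Dach1, against a median of 7 over 32851 windows. As many CG or more stood in 7.73% of all windows for Fgf12, 20% for Flvcr2, 36.3% for Stambpl1 and 37.9% for Dach1. Since the richest window of each gene was taken, these shares are a description of those starts only. Another 3 starts of Fgf12 held 18, 22 and 29 CG, and another 3 starts of Stambpl1 held 14, 2 and 3, where 85.9% and 76.7% of all windows hold as many as the last pair.

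Dach1 (chr14:97786846-98169765, RefSeq span on mm10) lies on the chromosome of Kat6b. It had 9.61, 7.75, 7.48, 3.56, 10.4 and 9.51 CPM in Tg_FvB replicates 1 to 6, against 2.86 and 2.05 CPM in WT_FvB. Every transgenic library was above both wild types, and replicate 4, which lies beside the wild types on the first component, was the closest to them at 1.45 times their mean. The means were 8.05 ± 2.47 CPM (SD, n = 6) in Tg_FvB and 2.45 ± 0.569 CPM (SD, n = 2) in WT_FvB, a log2 fold change of 1.74 (SE 0.32). On the C57BL/6 background Dach1 had 11.1, 7.73, 10.6 and 9.15 CPM in KO_B6 and 14.8, 13 and 14.6 CPM in WT_B6. All 4 knockout libraries were below all 3 wild types, but the difference of -0.55 (SE 0.24, log2) did not pass edgeR's quasi-likelihood test (adjusted p = 0.0674). It passed under 4 alternative settings, among them the fit of the B6 libraries alone (-0.56, adjusted p = 0.00548), and without KO_B6 replicate 1 (-0.65, adjusted p = 0.0459). The order of the group means was WT_B6, KO_B6, Tg_FvB and WT_FvB, with KO_B6 and Tg_FvB overlapping.

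**Figure D1:**
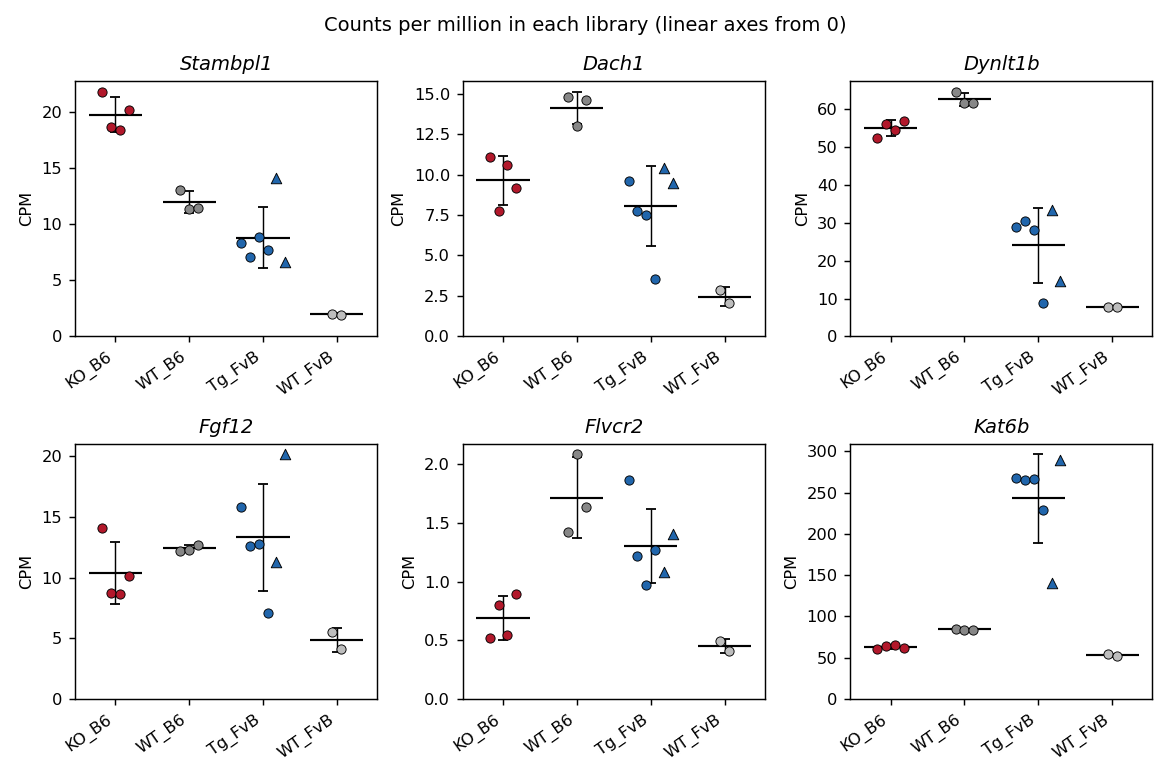
CPM (vertical axes, linear, from 0) of the 5 genes and Kat6b in KO_B6, WT_B6, Tg_FvB and WT_FvB. Each point is a library, triangles are Tg_FvB replicates 5 and 6, and bars give the mean and SD. All 6 Tg_FvB libraries lie above both WT_FvB libraries in every panel, and Dynlt1b and Dach1 of Tg_FvB replicate 4, at 8.71 and 3.56 CPM, lie nearest to them.

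The partners of Dach1 in the retinal determination network, with the SKI family, showed no called change in Tg_FvB against WT_FvB among 11 tested genes, where 0.681% of all tested genes were called higher and 1.16% lower. At an unadjusted p under 0.05, 1 was higher and 1 lower, and DESeq2 called 0. Over all 15261 tested genes, 2793 had an unadjusted p under 0.05 and DESeq2 called 720, in either direction. The 11 genes had a median log2 fold change of 0.044, against 0.014 over all genes. Dach2, the paralog, averaged 1.72 ± 0.396 CPM in Tg_FvB and 1.29 ± 0.431 CPM in WT_FvB (edgeR adjusted p = 0.482). In KO_B6 against WT_B6, 3 of the 11 fell and 2 rose, where 20.9% of all genes were called lower and 24.8% higher. The phosphatase and cofactor gene Eya2 fell most, with 1.65 ± 0.515 CPM in KO_B6 (n = 4) and 3.67 ± 0.298 CPM in WT_B6 (n = 3; edgeR adjusted p = 0.00206). Pax6, a master regulator of the eye and dorsal telencephalon, averaged 48.1 ± 3.59 CPM in KO_B6 and 65 ± 1.55 CPM in WT_B6 (edgeR adjusted p = 0.00325). Six4 also fell (log2 fold change -0.55), while Eya4 (0.25) and Ski (0.15) rose.

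Dynlt1b (RefSeq span chr17:6429530-6440500) was the most abundant of the 5 genes per length in every group, at 71.4, 81.2, 31.2 and 10.1 CPM per kb in KO_B6, WT_B6, Tg_FvB and WT_FvB. It had 29, 30.5, 28.1, 8.71, 33.4 and 14.5 CPM in Tg_FvB replicates 1 to 6, against 7.73 and 7.84 CPM in WT_FvB. The transgenic libraries stood at separate levels: replicates 1, 2, 3 and 5 were at 3.61 to 4.29 times the wild-type mean, replicate 6 at 1.86 times and replicate 4 at 1.12 times. Kat6b had 229 and 289 CPM in replicates 4 and 6, and its lowest transgenic level, 140 CPM, in replicate 5. Whether the Dynlt1b level depends on that of Kat6b was not tested. The mean of 24 ± 9.98 CPM in Tg_FvB (n = 6) against 7.78 ± 0.0759 CPM in WT_FvB (n = 2), a log2 fold change of 1.64 (SE 0.38), therefore averages unlike libraries.

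On the C57BL/6 background Dynlt1b had 52.5, 56.2, 54.4 and 57 CPM in KO_B6 and 64.6, 61.6 and 61.7 CPM in WT_B6. The groups did not overlap, and the difference of -0.19 (SE 0.29, log2) did not pass the edgeR test over 15 libraries (adjusted p = 0.625). It passed when the 7 B6 libraries were fitted alone (-0.20, adjusted p = 0.00635), where the uneven Tg_FvB libraries no longer enter the estimate of the spread. The group means ran from WT_B6 through KO_B6 and Tg_FvB to WT_FvB, with no overlap between neighbours.

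The Dynlt1b values are uncertain because of its copies. Of the 706 windows of 66 bases (the read length) in its transcript, 585 (82.9%) also occur in transcripts of other genes, mainly Dynlt1a, Dynlt1c and Dynlt1f. For Stambpl1, Dach1, Fgf12 and Flvcr2 that number was 0. How the authors' counting treated such reads is not stated in the labels. The 3 copies printed above were closer between the groups than Dynlt1b. Dynlt1a averaged 11 ± 1.93 CPM in Tg_FvB and 10.5 ± 1.28 CPM in WT_FvB, with an edgeR adjusted p of 0.787. Dynlt1c averaged 23.2 ± 2.29 CPM in Tg_FvB and 21.3 ± 0.43 CPM in WT_FvB (edgeR adjusted p = 0.5). Dynlt1f averaged 38.5 ± 4.36 CPM in Tg_FvB and 32.4 ± 2.27 CPM in WT_FvB (edgeR adjusted p = 0.186). Dynlt1b made up 12.7% to 29.8% of the summed counts of the 4 copies in Tg_FvB and 10.3% to 11.3% in WT_FvB, and 36.8% to 38.8% in KO_B6 and 40.2% to 42.5% in WT_B6. The summed level of the 4 copies was 96.8 ± 15.2 CPM in Tg_FvB and 72 ± 3.89 CPM in WT_FvB.

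A neighbour of Dynlt1b moved with it library by library. Tmem181b-ps (chr17:6439002-6450994), annotated as a pseudogene, overlaps the RefSeq span of Dynlt1b but shares no exon with it in GENCODE. It had 26.9, 25.2, 22.2, 4.04, 30.8 and 7.43 CPM in Tg_FvB replicates 1 to 6, against 4.48 and 4.24 CPM in WT_FvB. The same libraries were high and low as for Dynlt1b, and replicate 4 lay just under the wild types. The log2 fold change of 2.17 (SE 0.59) did not pass the edgeR test (adjusted p = 0.0739). In KO_B6 it lay at 84.9 to 111 CPM, against 47.3 to 51.3 CPM in WT_B6 (edgeR adjusted p = 0.0699), above the wild type where Dynlt1b lay below it. The kit does not mark strand, so reads of overlapping genes cannot be told apart by it.

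**Figure D2:**
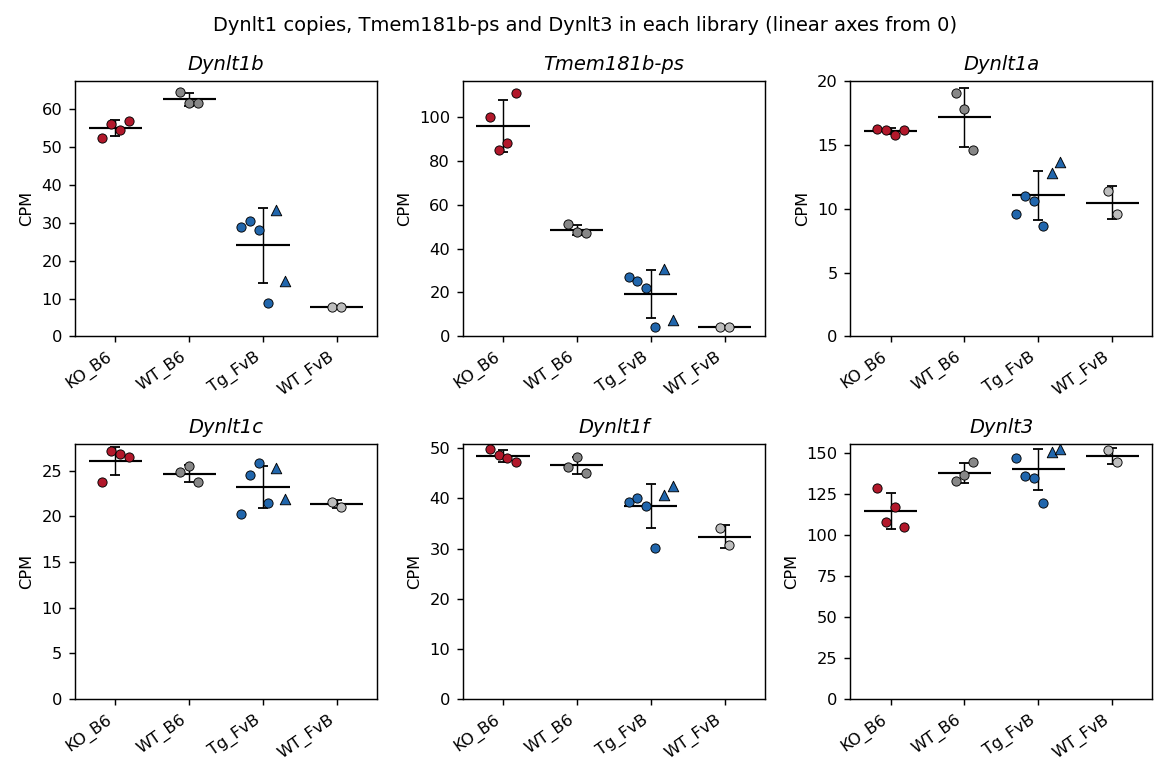
CPM (linear axes from 0) of Dynlt1b, its neighbour Tmem181b-ps, the copies Dynlt1a, Dynlt1c and Dynlt1f, and the relative Dynlt3, in each library of KO_B6, WT_B6, Tg_FvB and WT_FvB. Points are libraries, triangles are Tg_FvB replicates 5 and 6, and bars give the mean and SD. Dynlt1b and Tmem181b-ps are low in Tg_FvB replicates 4 and 6 (8.71 and 14.5 CPM, 4.04 and 7.43 CPM), while Dynlt1c stays between 20.3 and 25.8 CPM in all 6.

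Of 15 other tested dynein and dynactin genes, edgeR called 0 in Tg_FvB against WT_FvB (median log2 fold change 0.11). At an unadjusted p under 0.05, 5 were higher and 0 lower, and DESeq2 called 1, the light chain gene Dynll2, higher. Over all 15261 tested genes, edgeR called 1.84%, 2793 had an unadjusted p under 0.05 and DESeq2 called 720, in either direction. Dynlt3, the closest relative outside the copies, averaged 140 ± 12.5 CPM in Tg_FvB and 148 ± 4.96 CPM in WT_FvB (edgeR adjusted p = 0.677). In KO_B6 against WT_B6, 3 of the 15 fell and 1 rose, where 20.9% of all tested genes were called lower and 24.8% higher. Dynlt3 fell, with 115 ± 10.9 CPM in KO_B6 (n = 4) and 138 ± 5.7 CPM in WT_B6 (n = 3; edgeR adjusted p = 0.0173). The dynactin genes Dctn1 (-0.16) and Dctn2 (-0.32) fell on the log2 scale, and the light chain gene Dynll1 (0.28) rose.

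Stambpl1 (chr19:34190378-34240333) had the largest transgenic difference of the 5 genes. It had 8.36, 7.08, 8.85, 7.68, 14.1 and 6.67 CPM in Tg_FvB replicates 1 to 6, against 2.02 and 1.91 CPM in WT_FvB. All 6 were above both wild types, with replicate 5 far above the others. That library had the lowest transgenic Kat6b level, and a relation between the levels of the genes was not tested. The means were 8.79 ± 2.72 CPM in Tg_FvB (n = 6) and 1.97 ± 0.0741 CPM in WT_FvB (n = 2), a ratio of 4.47 and a log2 fold change of 2.16 (SE 0.27). Without replicates 5 and 6 the log2 fold change was 2.01.

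In the knockout Stambpl1 rose. It had 21.8, 18.7, 18.4 and 20.2 CPM in KO_B6 and 13.1, 11.4 and 11.5 CPM in WT_B6. Every knockout library was above every wild type, by a log2 fold change of 0.73 (SE 0.19) and a ratio of 1.65, and edgeR called it (adjusted p = 0.00669). Stambpl1 and Flvcr2 were the 2 of the 5 genes called in this comparison, in which 45.8% of all tested genes were called. Stambpl1 was the 1 gene of the 5 with non-overlapping groups in the higher direction (29.3% of all genes), and Dach1, Dynlt1b and Flvcr2 were the 3 in the lower direction (27% of all genes). Within litter 843, KO_B6 replicates 1 and 2 had 21.8 and 18.7 CPM of Stambpl1 against 11.4 CPM in WT_B6 replicate 2. Within litter 929, KO_B6 replicates 3 and 4 had 18.4 and 20.2 CPM against 11.5 CPM in WT_B6 replicate 4. Across these litters WT_B6 replicates 2 and 4 were near-identical (biological coefficient of variation 0.0172), as were KO_B6 replicates 2 and 3 (0.0268). The 2 litters therefore cannot be taken as independent repeats. The call was lost when near-identical libraries were summed (0.77, edgeR adjusted p = 0.264), a step that leaves 1 WT_B6 and 1 WT_FvB profile. The order of the means was KO_B6, WT_B6, Tg_FvB and WT_FvB, with WT_B6 and Tg_FvB overlapping through Tg_FvB replicate 5.

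The paralog Stambp, which encodes AMSH itself, averaged 25 ± 2.96 CPM in Tg_FvB and 22 ± 0.236 CPM in WT_FvB (edgeR adjusted p = 0.424). In the knockout it fell, with 20.1 ± 2.74 CPM in KO_B6 (n = 4) and 31.5 ± 0.758 CPM in WT_B6 (n = 3; edgeR adjusted p = 0.000279), a direction opposite to that of Stambpl1. Of 13 tested genes of AMSH-type deubiquitinases and endosomal sorting other than Stambpl1, 2 fell and 1 rose in KO_B6 against WT_B6. In that comparison 45.8% of all tested genes were called in either direction. In Tg_FvB against WT_FvB, 0 of the 13 were called by edgeR, by DESeq2 or at an unadjusted p under 0.05. Over all 15261 tested genes, edgeR called 1.84% there, DESeq2 called 720 and 2793 had an unadjusted p under 0.05. The others called in the knockout were Usp8 (log2 fold change -0.15), an endosomal deubiquitinase, and Psmd14 (0.22), the deubiquitinase of the proteasome lid.

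Fgf12 (chr16:28157783-28753243) had 15.8, 12.6, 12.8, 7.12, 11.3 and 20.2 CPM in Tg_FvB replicates 1 to 6, against 5.56 and 4.15 CPM in WT_FvB. All 6 were above both wild types, with replicate 4 lowest and replicate 6 highest. The means were 13.3 ± 4.38 CPM in Tg_FvB (n = 6) and 4.85 ± 1 CPM in WT_FvB (n = 2), a log2 fold change of 1.47 (SE 0.31). On the C57BL/6 background it had 14.1, 8.74, 8.61 and 10.1 CPM in KO_B6 and 12.2, 12.3 and 12.7 CPM in WT_B6. KO_B6 replicate 1 was above all wild types and the other 3 were below them, so the groups overlapped, and the difference of -0.25 (SE 0.25, log2) did not pass the edgeR test (adjusted p = 0.436). Tg_FvB, WT_B6 and KO_B6 overlapped one another, and WT_FvB was below all of them.

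The other genes of this family had other patterns. Fgf14 had 1.97, 2.25, 2.38 and 1.27 CPM in Tg_FvB replicates 1 to 4 and 9 and 5.63 CPM in replicates 5 and 6, against 1.82 and 1.73 CPM in WT_FvB. Only the 2 transgenic libraries whose columns are headed as wild type were far above the others, and the difference did not pass the edgeR test (adjusted p = 0.312). Fgf14 was much lower in WT_FvB, at 1.78 ± 0.0638 CPM, than in WT_B6, at 14.4 ± 1.26 CPM (log2 fold change -3.02, edgeR adjusted p = 0.00123), where 23.5% of all tested genes were called lower. Fgf11 averaged 8.06 ± 2.09 CPM in Tg_FvB and 14.6 ± 0.105 CPM in WT_FvB (edgeR adjusted p = 0.0577). In the knockout Fgf11 fell, with 8.29 ± 2.05 CPM in KO_B6 and 12.2 ± 1.27 CPM in WT_B6 (edgeR adjusted p = 0.0389). Fgf13 was not called in either comparison, with 8.86 ± 1.4 CPM in Tg_FvB and 7.9 ± 0.6 CPM in WT_FvB (edgeR adjusted p = 0.672), and 9.87 ± 2.69 CPM in KO_B6 and 9.83 ± 0.432 CPM in WT_B6 (edgeR adjusted p = 0.991). Among 11 tested family and sodium channel genes other than Fgf12, edgeR called 0 in Tg_FvB against WT_FvB, with 1 higher and 2 lower at an unadjusted p under 0.05. DESeq2 called the channel gene Scn3a higher and Fgf11 lower. Over all 15261 tested genes, edgeR called 1.84%, 2793 had an unadjusted p under 0.05 and DESeq2 called 720, in either direction. In KO_B6 against WT_B6, where 45.8% of all tested genes were called, Scn2a (log2 fold change -0.39) and Scn3a (-0.66), which encode channel pores, fell along with Fgf11.

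**Figure D3:**
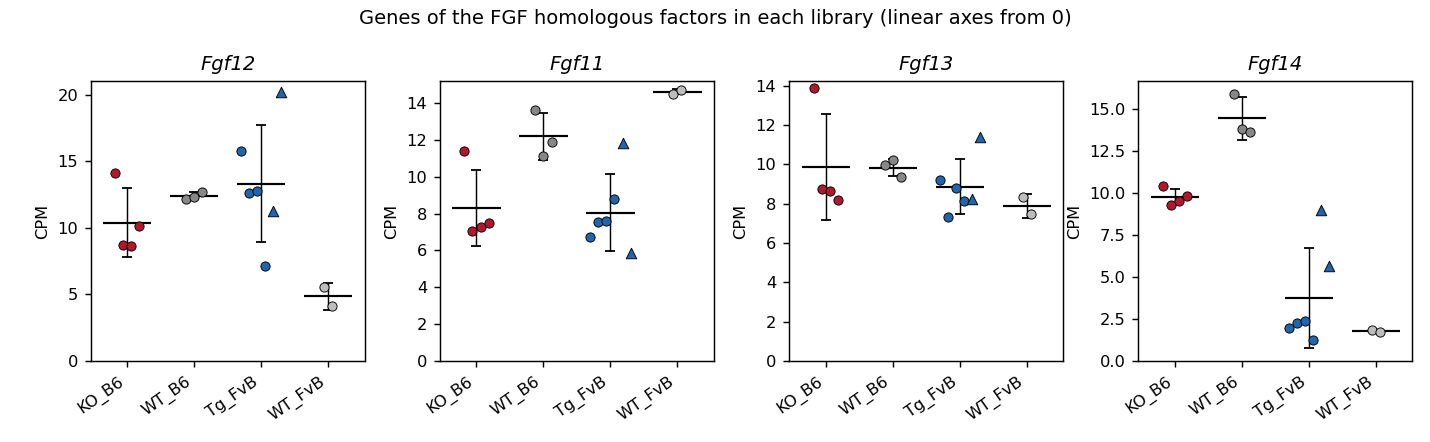
CPM (linear axes from 0) of Fgf12, Fgf11, Fgf13 and Fgf14 in each library of KO_B6, WT_B6, Tg_FvB and WT_FvB, with points for libraries, triangles for Tg_FvB replicates 5 and 6, and bars for mean and SD. Fgf12 is above WT_FvB in all 6 Tg_FvB libraries, while Fgf14 is far above WT_FvB in replicates 5 and 6, at 9 and 5.63 CPM.

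Flvcr2 (chr12:85746539-85813586) was the least abundant of the 5. It had 1.87, 1.22, 0.968, 1.27, 1.08 and 1.41 CPM in Tg_FvB replicates 1 to 6, against 0.492 and 0.41 CPM in WT_FvB, which rest on 10 and 9 counts. All transgenic libraries were above both wild types, by a log2 fold change of 1.52 (SE 0.34), and 19 counts in all set the precision of this reference. In the knockout Flvcr2 fell. It had 0.523, 0.798, 0.543 and 0.896 CPM in KO_B6 and 1.42, 2.09 and 1.64 CPM in WT_B6. No knockout library reached a wild type, and the log2 fold change of -1.30 (SE 0.25), a ratio of 0.402, was called by edgeR (adjusted p = 0.000706). Within litter 843 the levels were 0.523 and 0.798 CPM in KO_B6 against 2.09 CPM in WT_B6, and within litter 929 they were 0.543 and 0.896 CPM in KO_B6 against 1.64 CPM in WT_B6. Since near-identical libraries stand across these litters, the litters cannot be taken as independent repeats. With near-identical libraries summed the value was -1.31 and the edgeR adjusted p 0.106. The order of the means was WT_B6, Tg_FvB, KO_B6 and WT_FvB, with WT_B6 and Tg_FvB overlapping.

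In tissue Flvcr2 marks endothelial cells, whose 10 markers were low here, with summed levels of 3.13 to 3.69 CPM in KO_B6, 1.84 to 1.96 CPM in WT_B6, 3.63 to 5.94 CPM in Tg_FvB and 6.4 to 6.79 CPM in WT_FvB. Cdh5 was at 0 in WT_B6 and WT_FvB, Cldn5 and Erg at 0 in WT_B6, and Tie1 at 0 in WT_FvB. The markers did not all run one way in the transgenic comparison, since Flt1 averaged 0.582 ± 0.483 CPM in Tg_FvB and 1.91 ± 0.0625 CPM in WT_FvB, while Pecam1 averaged 0.155 ± 0.0611 CPM in Tg_FvB and 0.0948 ± 0.00519 CPM in WT_FvB. The part of such cells in the Flvcr2 values was not tested. In such bulk samples fewer cells of a type and less RNA per cell cannot be told apart.

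Flvcr1, the paralogous choline transporter, rose in the knockout, with 27.9 ± 1.23 CPM in KO_B6 (n = 4) and 17.3 ± 0.845 CPM in WT_B6 (n = 3; edgeR adjusted p = 8.3e-05), while Flvcr2 fell. In Tg_FvB it averaged 22.7 ± 2.51 CPM against 24 ± 2.59 CPM in WT_FvB (edgeR adjusted p = 0.7). Of 16 tested genes of choline and heme transport other than Flvcr2, 3 rose and 3 fell in KO_B6 against WT_B6, where 45.8% of all tested genes were called in either direction. The choline transporter-like genes Slc44a1 (log2 fold change -0.51) and Slc44a2 (-0.45) and Fech (-0.45), which encodes the last enzyme of heme synthesis, fell. Chka (0.18), a choline kinase, and Abcg2 (0.56), an exporter, rose. In Tg_FvB against WT_FvB, edgeR called 1 of the 16, with 3 higher and 2 lower at an unadjusted p under 0.05. DESeq2 called 2 lower, Abcg2 and Hmox1. Of all 15261 tested genes, edgeR called 1.84%, 2793 had an unadjusted p under 0.05 and DESeq2 called 720. Hmox1, the heme-degrading oxygenase, fell to 40 ± 1.09 CPM in Tg_FvB (n = 6), against 49.3 ± 0.715 CPM in WT_FvB (n = 2; edgeR adjusted p = 0.0278).

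The strain difference ran through all 5 genes. WT_FvB was below WT_B6 by a log2 fold change of -3.01 (SE 0.42) for Dynlt1b, -2.60 (SE 0.29) for Stambpl1, -2.53 (SE 0.34) for Dach1, -1.93 (SE 0.36) for Flvcr2 and -1.35 (SE 0.34) for Fgf12. The wild-type libraries of the 2 backgrounds did not overlap for any of the 5, where 38.2% of all tested genes were lower and 40.1% higher without overlap. In Tg_FvB against WT_FvB, too, the groups did not overlap for any of the 5, all higher, where 7.97% of all tested genes were higher and 8.01% lower without overlap. Both comparisons share the WT_FvB libraries, which helped to choose the genes, so nothing is read from these counts. Kat6b was also lower in WT_FvB, at 53.1 ± 1.8 CPM, than in WT_B6, at 84.2 ± 0.778 CPM (edgeR adjusted p = 0.0157). Strain, litter and culture cannot be told apart between the wild types.

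Set against WT_B6, the transgenic libraries differed by gene. Their levels were 13.9% to 53.3% of the WT_B6 mean for Dynlt1b and 25.2% to 73.6% for Dach1. They were 55.6% to 118% for Stambpl1, 56.4% to 109% for Flvcr2 and 57.4% to 163% for Fgf12. Fgf12 was thus the 1 gene of the 5 whose transgenic mean, 13.3 CPM, exceeded the mean of WT_B6, 12.4 CPM.

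**Figure D4:**
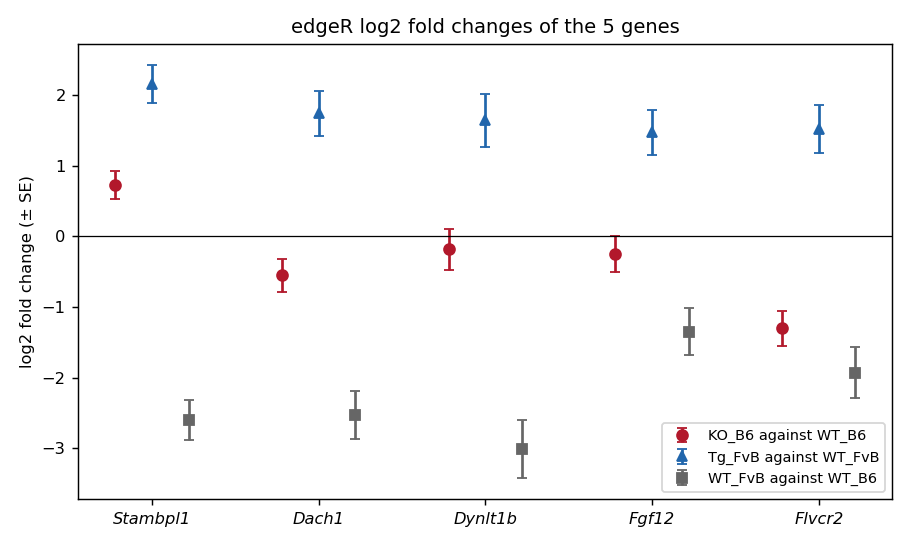
Log2 fold changes (edgeR, with SE) of the 5 genes in KO_B6 against WT_B6 (circles), Tg_FvB against WT_FvB (triangles) and WT_FvB against WT_B6 (squares). All transgenic values lie between 1.47 and 2.16 and all strain values between -3.01 and -1.35, while the knockout values run from -1.30 for Flvcr2 to 0.73 for Stambpl1.

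The position of the transgenic libraries between the backgrounds can be set beside these values, which helped to choose the genes, and no single order held for all 5 genes. Tg_FvB replicate 4, beside WT_FvB on the first component, was the lowest transgenic library for Dach1, Dynlt1b and Fgf12 but not for Stambpl1 or Flvcr2. Replicate 5, the nearest to the B6 libraries, was the highest for Stambpl1, Dach1 and Dynlt1b. Along the first component the transgenic libraries ran from replicate 4 through 3, 2, 1 and 6 to 5. In that order Dach1 had 3.56, 7.48, 7.75, 9.61, 9.51 and 10.4 CPM, rising at every step except from replicate 1 to 6. Replicate 6 lay close to replicate 5 on that component but was the lowest transgenic library for Stambpl1, at 6.67 CPM, and the highest for Fgf12, at 20.2 CPM. It had 14.5 CPM of Dynlt1b, against 33.4 CPM in replicate 5. For Flvcr2 the highest was replicate 1 and the lowest replicate 3. Whether the genetic make-up of single embryos has a part in the levels of the 5 genes was not tested. Without replicate 4 the log2 fold changes were 2.18 for Stambpl1, 1.87 for Dach1, 1.79 for Dynlt1b, 1.59 for Fgf12 and 1.53 for Flvcr2. Without replicates 5 and 6 they were 2.01, 1.56, 1.66, 1.33 and 1.54 in the same order of genes. Without WT_FvB replicate 2, whose litter and embryo number a WT_B6 library shares, they were 2.11, 1.51, 1.64, 1.27 and 1.39. Litter 844 holds both WT_FvB libraries and Tg_FvB replicates 1 and 2, and with litter in the model the values were 1.97, 1.82, 1.94, 1.54 and 1.75. Tg_FvB replicates 2 and 3, of litters 844 and 873, were near-identical (biological coefficient of variation 0.0338). So were Tg_FvB replicates 1 and 2 (0.0415) and the WT_FvB libraries (0.0316). These libraries and litters therefore cannot be taken as independent repeats. With near-identical libraries summed the values were 2.21, 1.72, 1.49, 1.45 and 1.5.

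Markers of other neural cell types also differed between Tg_FvB and WT_FvB, where edgeR called 0.681% of all tested genes higher and 1.16% lower. Of 9 astrocyte markers, 5 fell (Gfap, Aqp4, S100b, Clu and Sparcl1), and the list summed to 3250 to 3610 CPM in Tg_FvB and 4020 to 4100 CPM in WT_FvB. Gfap, the astrocyte filament gene, averaged 35.3 ± 23.4 CPM in Tg_FvB (n = 6) and 158 ± 1.2 CPM in WT_FvB (n = 2; edgeR adjusted p = 0.044). Of 8 oligodendrocyte lineage markers, 2 rose, Sox10 (log2 fold change 1.2, edgeR adjusted p = 0.0232) and Gpr17 (1.33, 0.0481), with sums of 2160 to 3100 CPM in Tg_FvB and 2400 to 2420 CPM in WT_FvB. Of 9 tested neuron markers, 2 rose and were very low in both groups, namely Rbfox3, at 2.06 ± 0.82 CPM in Tg_FvB and 0.358 ± 0.12 CPM in WT_FvB, and Neurod1, at 0.564 ± 0.19 CPM in Tg_FvB and 0.0474 ± 0.00259 CPM in WT_FvB. The 10 neuron markers summed to 879 to 1110 CPM in Tg_FvB and 983 to 1030 CPM in WT_FvB. Map2 made up most of these sums, at 982 ± 75 CPM in Tg_FvB and 978 ± 35.2 CPM in WT_FvB, and Snap25 was also level. Tubb3 averaged 11.5 CPM in Tg_FvB and 5.6 CPM in WT_FvB, Dcx 28.3 and 11.9 CPM, and Syt1 7.84 and 3.91 CPM. These rises did not pass the edgeR test (adjusted p = 0.0683, 0.0635 and 0.17). Stmn2, Neurod6 and Tbr1 were also higher on average, at very low levels and without a call. In KO_B6 against WT_B6, 5 of the 9 astrocyte markers fell, 1 oligodendrocyte lineage marker rose and 3 fell, and 2 neuron markers rose and 2 fell. In that comparison 24.8% of all tested genes were called higher and 20.9% lower. The part of these cell types in the levels of the 5 genes was not tested.

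Among all tested genes, 162 (1.06%) had a log2 fold change of at least 1.5 in Tg_FvB against WT_FvB. By that value Stambpl1 ranked 90, Dach1 121, Dynlt1b 140, Flvcr2 159 and Fgf12 174 of 15261, and Fgf12 was just under 1.5. These ranks come from the comparison that chose the genes.

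Of the 3 nearest tested genes on each side of the 5 genes, 30 in all, edgeR called 0 higher and 1 lower in Tg_FvB against WT_FvB, with a median log2 fold change of -0.08. At an unadjusted p under 0.05, 2 were higher and 6 lower, and DESeq2 called 1 higher, Tmem181b-ps, and 2 lower, Tgfb3 and Lipo3. Of all 15261 tested genes, edgeR called 0.681% higher and 1.16% lower. In either direction, 2793 of them had an unadjusted p under 0.05 and DESeq2 called 720. The neighbour called by edgeR was Tgfb3, a growth factor gene near Flvcr2, with 5.18 ± 1.02 CPM in Tg_FvB (n = 6) and 9.22 ± 0.404 CPM in WT_FvB (n = 2; edgeR adjusted p = 0.0279). The largest neighbour value was the 2.17 of Tmem181b-ps beside Dynlt1b, which edgeR did not call.

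**Figure D5:**
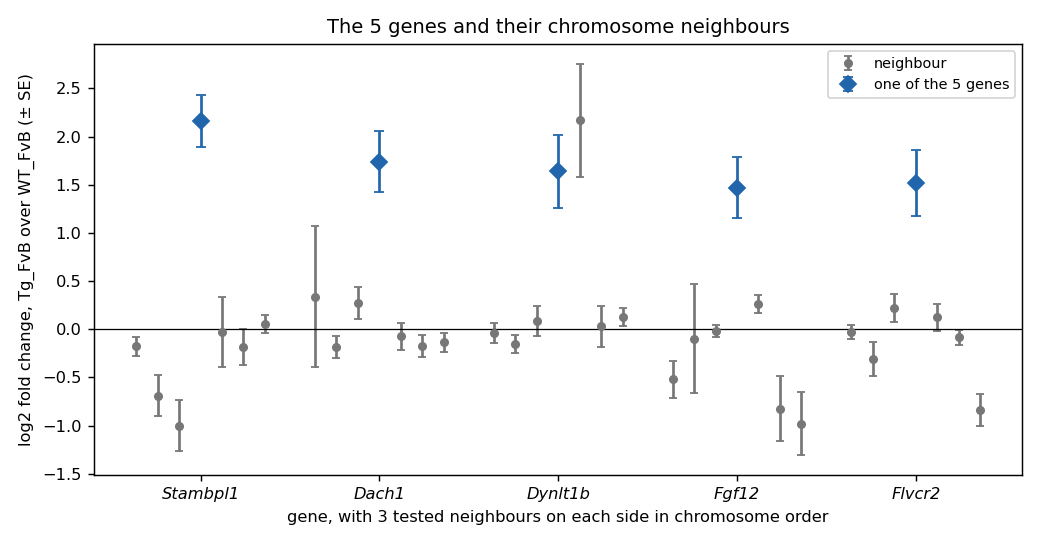
Log2 fold changes (edgeR, with SE) in Tg_FvB against WT_FvB of the 5 genes (diamonds) and of 3 tested neighbours on each side (circles, in chromosome order). The 5 genes lie between 1.47 and 2.16, and the neighbours between -1.0 and 2.17, where Tmem181b-ps beside Dynlt1b is the highest.

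Across all 15 libraries, the 5 genes varied together to unequal degrees, on log2(CPM + 0.5). Pearson's r was 0.882 for Dach1 and Dynlt1b, 0.861 for Stambpl1 and Dynlt1b, 0.802 for Dach1 and Fgf12 and 0.786 for Stambpl1 and Dach1. It was 0.641 for Fgf12 and Flvcr2, 0.554 for Dach1 and Flvcr2, 0.518 for Stambpl1 and Fgf12, 0.511 for Dynlt1b and Fgf12, 0.303 for Dynlt1b and Flvcr2 and 0.204 for Stambpl1 and Flvcr2. The points share the low WT_FvB libraries, so these values describe the groups as much as single libraries.

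The genes most like each of the 5 over the same libraries were sought among genes that averaged 5 CPM or more. They were Capza1 (r = 0.976), Tnfrsf21 (0.96) and Rabl2 (0.958) for Dynlt1b, and Phldb2 (0.961), Adcy5 (0.955) and Dmrta1 (0.952) for Dach1. For Fgf12 they were Rcan1 (0.962), H2-Ke6 (0.95) and Sfrp2 (0.924), and for Stambpl1 they were Hspa1l (0.941), Ror2 (0.94) and Adamts10 (0.92). Flvcr2 had the weakest matches, Nrde2 (0.883), Apba1 (0.865) and Zwint (0.865). Of these 15 genes, 3 lie on the chromosome of the gene they match, namely Tnfrsf21, Rcan1 and Nrde2. Their own log2 fold changes in Tg_FvB against WT_FvB ran from 0.20 for Nrde2 to 1.05 for Dmrta1, all below those of the 5 genes. Since the 5 genes were chosen for large rises in this comparison, nothing is read from that difference.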

How the data were processed

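RNA was sequenced on a NextSeq500 after the TruSeq RNA prep kit v2, per the labels' protocols. The deposited files hold raw counts per gene that the authors made with featureCounts on mm10, after bcl2fastq, per the submitters' processing notes. Aligner, versions, annotation and counting options are not stated there. The deposited gene length in bases (another unit than counts) gave levels per kb. Entries without a gene name (917, 0.45% to 0.545% of counts) were left out.

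Groups follow the genotype and background fields. edgeR 4.0.16 (R 4.3.3) fitted 15 libraries in 1 model with TMM and filterByExpr (minimum count 10), using the quasi-likelihood F-test, and genes with a Benjamini-Hochberg adjusted p under 0.05 were called. DESeq2 1.42.0 was an alternative, beside RLE factors, no filter, litter, a replicate block, smaller fits, summed near-identical libraries and leaving out libraries. Coordinates are of GRCm38, matched by gene identifier for 98.1% of the kept genes. Pathway lists leave out the 5 genes themselves. Named were the 5 genes, Kat6b, paralogs, called list genes, the 3 most similar genes (no Gm, Rik or pseudogene names) and tested neighbours. Tmem181b-ps, cell type markers and list genes called only by DESeq2 were singled out after their values were seen. The 5 genes and the lists were chosen with earlier results of these data known. 1 called list gene is not reported here.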

Additional observations from a re-analysis of the deposited data

Results flagged for a closer look

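For the 5 genes and Kat6b, 12 groups of 4 or more libraries were examined for a library far from the others, and 1 stood out. Stambpl1 had 14.1 CPM in Tg_FvB replicate 5, against 6.67 to 8.85 CPM in the other 5 transgenic libraries, and its gap to the next library exceeded Dixon's 95% critical value. Chance flags about 1 in 20 groups. That library had the lowest transgenic Kat6b level, 140 CPM, its count column is headed as a wild type, and it lay between the backgrounds on the first principal component. Without it, Stambpl1 was still above both WT_FvB libraries in all 5 remaining transgenic libraries.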

How the results depend on the processing

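The log2 fold changes of the 5 genes kept their sign in every alternative run for the 3 comparisons, and those of Fgf12 kept their side of the threshold in KO_B6 against WT_B6. Leaving out 1 library at a time gave 0.65 to 0.79 for Stambpl1, -1.45 to -1.13 for Flvcr2, -0.65 to -0.48 for Dach1 (passing only without KO_B6 replicate 1), -0.22 to -0.16 for Dynlt1b and -0.46 to -0.20 for Fgf12 in KO_B6 against WT_B6. Dach1 passed with the replicate block (-0.61, adjusted p = 0.00183), in the B6 libraries alone (-0.56, 0.00548), without Tg_FvB replicates 5 and 6 (-0.58, 0.0327) and in DESeq2 (-0.57, 0.0363). Dynlt1b passed with the replicate block (-0.18, 0.0313) and in the B6 libraries alone (-0.20, 0.00635). With near-identical libraries summed, Stambpl1 (0.77, adjusted p = 0.264) and Flvcr2 (-1.31, 0.106) no longer passed. The cause was not tested beyond the loss of samples in that fit.

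Counts over all genes moved far more. With near-identical libraries summed (biological coefficient of variation under 0.05; 7 pairs), edgeR called 0 higher and 5 lower genes in KO_B6 against WT_B6, in place of 3787 and 3195, with 3433 at an unadjusted p under 0.05. Leaving out 1 library gave 3030 to 3530 higher and 2537 to 3639 lower. In Tg_FvB against WT_FvB, 104 higher and 177 lower became 6 and 4 with litter as a covariate, 808 and 769 with the replicate block, 0 and 0 with summed libraries (433 at an unadjusted p under 0.05), 3 and 7 with the FvB libraries alone, 217 and 424 without Tg_FvB replicates 5 and 6, and 354 and 366 in DESeq2. Leaving out 1 library gave 2 to 963 higher and 0 to 801 lower, the most without Tg_FvB replicate 4 and the fewest without either WT_FvB library. In WT_FvB against WT_B6, 3873 higher and 3583 lower became 0 and 0 with summed libraries (3606 at an unadjusted p under 0.05), and 2674 to 3411 and 2304 to 3105 without 1 library.

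Replicate numbers did not pair the samples. Same-numbered deviations correlated at -0.012, 0.009 and -0.017 in KO_B6 and WT_B6 and at 0.135 and -0.02 in Tg_FvB and WT_FvB, and 0 of 3 WT_B6 libraries correlated best with their own number. Depth limits Flvcr2 most, with 19 counts in WT_FvB.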
